A study of Mytilus coruscus with 2 samples.

Results

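In chromatin of the digestive gland of the marine mussel *Mytilus coruscus*, 42 of the 3465 Nrf2 ChIP-seq peaks lay nearest to a gene that the authors' annotation names as a G protein-coupled receptor. These peaks belonged to 31 of the 2548 nearest genes in the peak table. A gene was taken as a receptor where its Swiss-Prot or KEGG match held 1 of 14 words, such as coupled receptor, neuropeptide, somatostatin receptor, adrenergic receptor or opsin, and 12 of these words found a gene. The rule reads these names and no peak value.

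The series holds 1 ChIP library and 1 input library of the digestive gland, with no treatment named in the labels, and aims at genes controlled by Nrf2, a transcription factor of the oxidative stress response. The ChIP fragments were pulled down with a custom-made antibody that the series' design text names as one against Nrf2, while the sample's own antibody label is unfilled, and the input is the same chromatin without that selection. Strain, age and the number of mussels in each library were not stated in the sources. There were no replicates, so no value below carries a replicate error, no difference could be tested over samples, and all intervals cover counting error only.

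G protein-coupled receptors are membrane proteins with a bundle of transmembrane helices that bind a ligand outside the cell and activate a heterotrimeric G protein inside it. The activated G protein then raises or lowers cyclic AMP, or releases calcium through phospholipase C and inositol trisphosphate. In bivalves, as in other animals, peptides and biogenic amines such as serotonin and dopamine act through receptors of this superfamily on muscle, cilia, gut and gonad. A peak places antibody-selected DNA near a receptor gene and does not measure whether the receptor was transcribed. The peak table holds no expression values, so the labelled tissue could not be checked against marker genes.

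The receptor names were checked against InterPro protein signatures, which the word rule did not use. Of the 31 genes, 27 (38 peaks) carried a signature of a 7-transmembrane or G protein-coupled receptor. By signature, 21 genes belonged to family 1, the rhodopsin-like receptors, 5 to family 2, the secretin-like receptors that include the adhesion type, and 1 to family 3. The 4 genes without a signature were M.coruscus_chr10_2597, M.coruscus_chr2_0848, M.coruscus_chr5_2684 and M.coruscus_chr8_0308, each nearest to 1 peak. The rule's words were found in both databases for 19 genes, in Swiss-Prot alone for 4 and in KEGG alone for 8, although the other database often gave a receptor name without these words. Of the 29 genes with a Swiss-Prot match, 10 had an e-value above 1e-20, so the subtype names below are those of the best match in another species and not of a characterised mussel receptor.

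The receptor peaks were about as strong as the rest of the table. Fold enrichment is the ChIP pileup, the number of fragments stacked at the summit, over the local background from the input. It ranged from 1.79 to 10.1 over the 42 peaks, with a median of 4.63 (95% interval 3.82 to 4.97), and the median over all 3465 peaks was also 4.63. A fold enrichment of at least 4 was found in 27 of 42 receptor peaks, or 64.3% (Wilson 95% interval 49.2 to 77.0), against 69.7% of all peaks. A −log10 q of at least 3 was found in 32 of 42, or 76.2% (61.5 to 86.5), against 74.2% of all peaks. Both shares were near those of the whole table. Median pileup was 16 fragments in the receptor peaks and in all peaks, and median length was 335 bp (236 to 388) against 311 bp. When each gene was represented by its highest peak, the median was 4.84 for the 31 receptor genes and 4.84 for all 2548 genes.

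**Figure D1:**
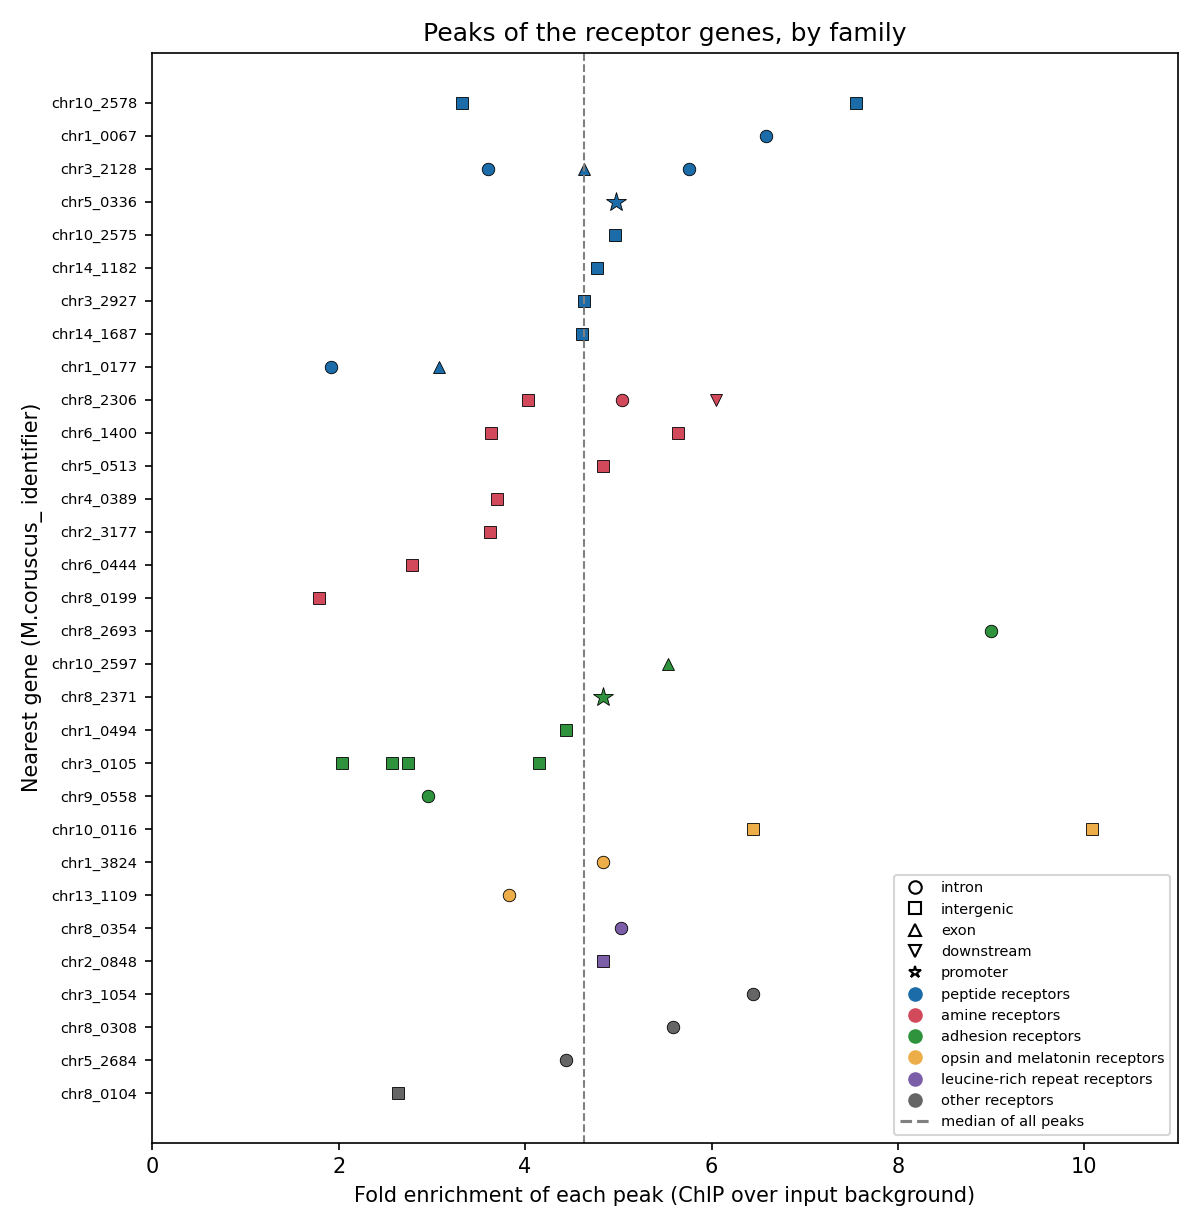
Fold enrichment (x axis) of the 42 receptor peaks, one row for each of the 31 nearest genes (y axis), coloured by receptor family and shaped by region class, with the median of all peaks (4.63) as a dashed line. The highest peak is that of the opsin gene M.coruscus_chr10_0116 at 10.1, the lowest that of M.coruscus_chr8_0199 at 1.79, and peaks of 1 gene often differ in strength.

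Receptors for peptides formed the largest group, with 9 genes and 13 peaks, of which 9 peaks reached 4-fold. Their median was 4.63, with a range of 1.92 to 7.55. The strongest was an intergenic peak 61104 bp upstream of M.coruscus_chr10_2578 (chr10:113894705-113894932), a match to somatostatin receptor type 2, which in vertebrates couples to inhibitory G proteins and curbs hormone release. It had a pileup of 23 and 7.55-fold enrichment. A second peak of the same gene, 29384 bp upstream, had a similar pileup of 26 but only 3.33-fold enrichment over a background of 8.12, against 3.18 at the stronger peak. Another somatostatin receptor type 2 match, M.coruscus_chr10_2575, stood 3 gene numbers away on chromosome 10, and its peak, 26836 bp from the start site, reached 4.97-fold with a pileup of 57. The gap between the nearest peaks of these genes was 230175 bp.

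An intron peak of M.coruscus_chr1_0067 (chr1:3551539-3551977), 3540 bp inside the gene, had 6.58-fold enrichment and a pileup of 16. This gene matched orexin receptor type 2 in Swiss-Prot (2e-33), a receptor of feeding and wakefulness in mammals. KEGG gave the gastrin and cholecystokinin type B receptor (6e-128), with GPR103 as the ortholog. M.coruscus_chr1_0177, also an orexin receptor type 2 match, was among the weakest, with an exon peak of 3.08-fold at 103854 bp and an intron peak of 1.92-fold at 37798 bp. Both stood over raised background, 8.12 and 25, with pileups of 24 and 47. These genes, which share an orexin match in Swiss-Prot but not in KEGG, thus differed. A stronger peak stood near the start in the former, and weaker peaks stood deep inside the latter.

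M.coruscus_chr3_2128 carried 3 peaks within 2139 bp on chromosome 3 (87429991 to 87432129). The gene matched neuropeptide FF receptor 2, which modulates pain in mammals, and the insect leucokinin receptor, which acts on fluid secretion. Fold enrichments were 3.60 and 5.76 for the intron peaks and 4.63 for the exon peak, with pileups of 9, 15 and 16, at 14705 to 16467 bp from the start site. Its annotated transmembrane segment spanned only 84 residues, the shortest among the 26 genes with such a segment, whose median was 257.

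A promoter peak lay 2276 bp upstream of M.coruscus_chr5_0336 (chr5:13609981-13610184), with 4.98-fold enrichment and a pileup of 21. Swiss-Prot matched it weakly (e-value 9e-06) to the growth hormone secretagogue receptor, the ghrelin receptor of mammals, and the KEGG ortholog was the orphan receptor GPR139 (8e-136). Receptors of the insect cardioacceleratory peptide were matched by M.coruscus_chr14_1687, 4.61-fold at 29634 bp, and by the KEGG name of M.coruscus_chr14_1182, 4.77-fold at 34684 bp upstream, whose Swiss-Prot match was the vasopressin V1b receptor. The remaining peptide gene, M.coruscus_chr3_2927, matched a chemokine receptor in Swiss-Prot and the capa and neuromedin U receptors in KEGG, and its peak 44862 bp upstream had 4.63-fold enrichment. These 3 genes lay close to the median of the table.

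Amine receptors comprised 7 genes and 10 peaks, of which 5 reached 4-fold, and their median of 3.87 (range 1.79 to 6.05) was the lowest of the 6 families. None of their peaks was in a promoter, against 7.24% of all peaks, and 8 of 10 were intergenic, against 40.5%. With 10 peaks, several from the same gene, these counts do not show a trait of the family. M.coruscus_chr8_2306, a match to the alpha-1D adrenergic receptor in both databases, held 3 of the 10 peaks. The adrenergic receptors bind noradrenaline in vertebrates and raise calcium through phospholipase C in the case of the alpha-1 type. Enrichment was 6.05-fold in the downstream class (chr8:104881510-104881734), 5.04-fold in an intron 536 bp away from it, and 4.03-fold in an intergenic peak 38511 bp from the start site. The pileups were 14, 13 and 9 over a background of 2.48 to 2.78, so all 3 peaks were made of few fragments.

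M.coruscus_chr6_1400 had peaks 18616 and 16928 bp upstream with 3.63- and 5.64-fold enrichment and pileups of 22 and 13. The peak with more fragments had the lower fold, over a background of 6.34 against 2.48. Swiss-Prot matched the gene to a serotonin receptor (5e-13), while KEGG gave the cholecystokinin receptor (4e-81), which in vertebrates drives gallbladder contraction and secretion of pancreatic enzymes. M.coruscus_chr6_0444, an alpha-1A adrenergic match in Swiss-Prot (3e-18), shared that KEGG ortholog, the cholecystokinin A receptor, and its peak 37368 bp upstream had 2.78-fold enrichment over a background of 10.8. By KEGG names both genes would move to the peptide receptors.

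The dopamine D2-like gene M.coruscus_chr5_0513, a receptor type that lowers cyclic AMP, had a 4.84-fold peak 102703 bp upstream. The serotonin receptor match M.coruscus_chr2_3177 had a 3.63-fold peak 52482 bp upstream, resting on the smallest pileup among the receptor peaks, 8 fragments. M.coruscus_chr4_0389, a serotonin receptor in Swiss-Prot and a muscarinic or histamine H3 receptor in KEGG, had a 3.70-fold peak 10826 bp upstream. At the other extreme stood M.coruscus_chr8_0199, a match to the octopamine and tyramine receptor, whose ligands take the place of noradrenaline in many invertebrates. Its peak 29507 bp upstream (chr8:9009901-9010237) held the most fragments of any receptor peak, 144, but had the lowest enrichment, 1.79-fold, over a background of 81.1.

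Adhesion receptors, which join long extracellular domains for cell contact to the transmembrane bundle, comprised 6 genes and 9 peaks with a median of 4.15 and a range of 2.04 to 8.99. The strongest was an intron peak of M.coruscus_chr8_2693 (chr8:122777798-122778555), 57636 bp inside the gene, with a pileup of 32 and 8.99-fold enrichment. It ranked 126 among all 3465 peaks, and both databases gave adhesion receptor A3, also known as GPR125. A promoter peak lay 1209 bp upstream of M.coruscus_chr8_2371 (chr8:108401590-108401999), with 4.84-fold enrichment and a pileup of 31. This gene matched adhesion receptor L3, a latrophilin, in Swiss-Prot, and D1 in KEGG. It was the receptor promoter peak closest to a start site.

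Latrophilins, which bind partner proteins across synapses in mammals, were also the Swiss-Prot match of M.coruscus_chr1_0494, 4.43-fold at 4731 bp upstream, and of M.coruscus_chr9_0558, 2.96-fold in an intron at 79824 bp. KEGG named the latter gene as a potassium channel tetramerisation domain protein and not as a receptor. The exon peak of M.coruscus_chr10_2597 reached 5.53-fold at 11496 bp, but this gene carried no receptor signature and was an adhesion receptor G2 by KEGG alone (5e-10). Its Swiss-Prot match (3e-20) was a threonine-rich glycoprotein of fission yeast and not a receptor.

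M.coruscus_chr3_0105 was nearest to 4 peaks, the most of any receptor gene. They lay 62991 to 66957 bp upstream within 4456 bp of chromosome 3 (4961593 to 4966048), with fold enrichments of 4.15, 2.74, 2.57 and 2.04 and pileups of 77, 29, 45 and 97. All 4 ranked in the top 10% of the table by background, at 10.9 to 48.2. The neighbouring gene M.coruscus_chr3_0104, named in KEGG as a myosin-binding protein, had a peak of 2.93-fold and pileup 88 only 6437 bp away, so peaks over raised background went on beyond those assigned to the receptor. The gene itself was an adhesion receptor by a weak KEGG match (4e-06), with a family 2 signature and no annotated 7-transmembrane receptor domain.

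Opsins and melatonin-type receptors comprised 3 genes and 4 peaks with a median of 5.64. The Gq-coupled rhodopsin gene M.coruscus_chr10_0116, whose best match (2e-159) is the light-sensing opsin of a scallop, had the strongest peak of all the receptors. It lay beyond the 3′ end of the gene, 17065 bp from the start site (chr10:4385010-4385517), with a pileup of 24, 10.1-fold enrichment and rank 85 in the table. A weaker peak of 6.45-fold and pileup 15 stood 784 bp away. Both were at the lowest background of the table. The gene M.coruscus_chr1_3824, a match to moody, a receptor of the blood-brain barrier in *Drosophila*, and to the melatonin receptor 1B, had a 4.84-fold intron peak at 54703 bp. M.coruscus_chr13_1109 had a 3.82-fold intron peak at 104310 bp, the farthest from a start site of all receptor peaks. It was an opsin only by a weak Swiss-Prot match (1e-06), and KEGG gave an orexin or tachykinin receptor (2e-45).

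The leucine-rich repeat receptors were M.coruscus_chr8_0354, a match to GRL101 of the pond snail with a 5.03-fold intron peak at 56218 bp, and M.coruscus_chr2_0848, with a 4.84-fold intergenic peak at 12006 bp. Swiss-Prot matched the latter to LGR5, a receptor known from intestinal stem cells in mammals. KEGG gave a subunit of an insulin-like growth factor-binding complex, a secreted leucine-rich repeat protein, and InterPro gave no receptor signature.

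Of the 4 other genes, M.coruscus_chr3_1054 matched GPR158, an orphan class C receptor best known from mammalian brain, and had a 6.45-fold intron peak at 34755 bp (chr3:43751022-43751214). This gene held the single family 3 signature. M.coruscus_chr5_2684 had the same KEGG ortholog with no signature and a 4.43-fold intron peak at 5875 bp. M.coruscus_chr8_0308 was placed here because its only name, the KEGG ortholog GPR125, holds none of the words used for the adhesion family, although M.coruscus_chr8_2693 carried it too. Counted there, it would bring the adhesion receptors to 7 genes and 10 peaks with a median of 4.29. It had a 5.59-fold intron peak at 1145 bp, the closest to a start site of all 42. M.coruscus_chr8_0104, a GPR139 match in Swiss-Prot and an FMRFamide receptor in TrEMBL, had a 2.64-fold peak at 5712 bp. In all, 5 KEGG orthologs were each shared by a pair of receptor genes.

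Background was computed from pileup and fold, so it restates how the caller formed each fold and is no separate measurement. Of the 42 peaks, 12, or 28.6% (17.2 to 43.6), stood at the lowest background in the table, 2.48 including the 1 that MACS3 adds, against 24.5% of all peaks. At that floor fold is the pileup plus 1 divided by 2.48, so peaks with the same pileup had the same fold. Thus a pileup of 11 gave 4.84-fold at M.coruscus_chr5_0513, M.coruscus_chr2_0848 and M.coruscus_chr1_3824, and a pileup of 15 gave 6.45-fold at M.coruscus_chr10_0116 and M.coruscus_chr3_1054. At the other end, 8 peaks of 5 genes, or 19.0% (9.98 to 33.3), ranked in that top 10% by background, against 9.99% of all peaks. Of the 8 receptor peaks under 3-fold, 6 were among them, which follows in part from background being computed with fold. The same share over all peaks was not counted, so this is not shown to be particular to receptors.

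**Figure D2:**
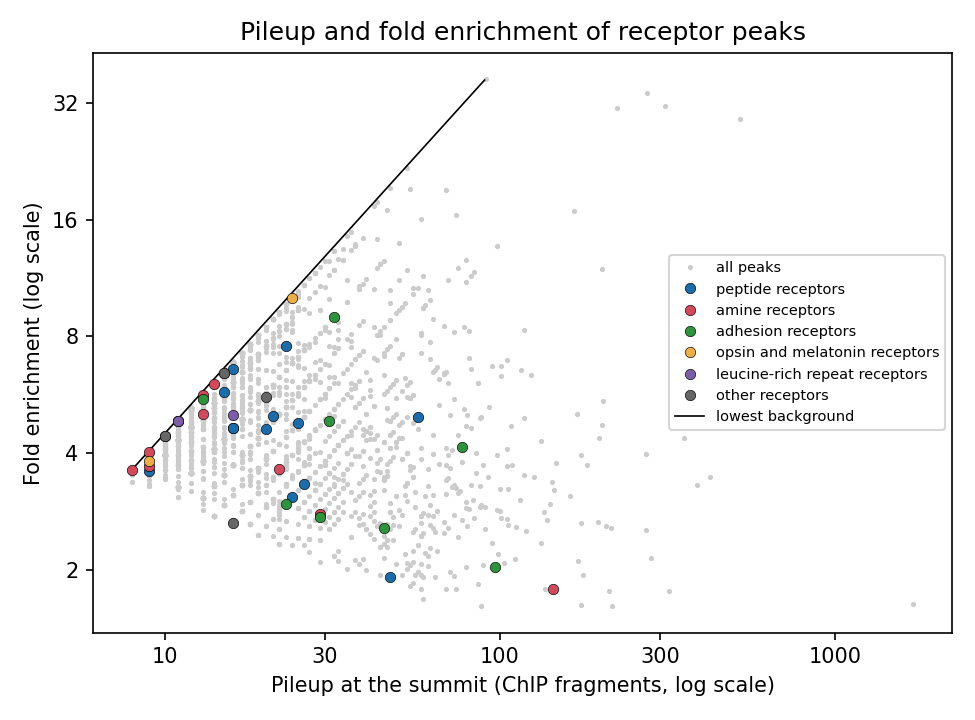
Fold enrichment (y axis, log scale) against summit pileup in ChIP fragments (x axis, log scale) for the 42 receptor peaks, coloured by family, over all 3465 peaks in grey; the line marks the lowest background of the table. The opsin peak with a pileup of 24 lies on the line at 10.1-fold, and the octopamine-type peak with a pileup of 144 lies at 1.79-fold.

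Most receptor peaks lay outside the gene body. Intergenic peaks made up 23 of 42, or 54.8% (39.9 to 68.8), against 40.5% of all peaks, and intron peaks 13 of 42, or 31.0% (19.1 to 46.0), against 44.9%. For introns the interval includes the value of the whole table, and for intergenic peaks it only just does. Within the intergenic class, 16 peaks, or 38.1% (25 to 53.2), were upstream of the gene, against 23.9% of all peaks, while the 7 beyond the end of the gene made up 16.7%, against 16.6%. The upstream interval leaves out the value of the whole table, but 4 of the 16 peaks were those of M.coruscus_chr3_0105. Without that gene the share was 12 of 38, or 31.6% (19.1 to 47.5), and without the top 10% by background 10 of 34, or 29.4% (16.8 to 46.2), and these intervals include 23.8% and 22.9%, the values of all peaks treated alike. Exons held 3 receptor peaks and the downstream class 1. Promoters, which the annotation counts up to 3 kb from the start site, held the 2 peaks named above, or 4.76% (1.32 to 15.8), against 7.24% of all peaks. No receptor peak was within 1 kb of a start site in the promoter(1k) class. That 0 of 42 allows a share of up to 7.14% at 3 counts of the total, or 8.38% by the Wilson interval, and 84 of all peaks, or 2.42%, were in this class.

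**Figure D3:**
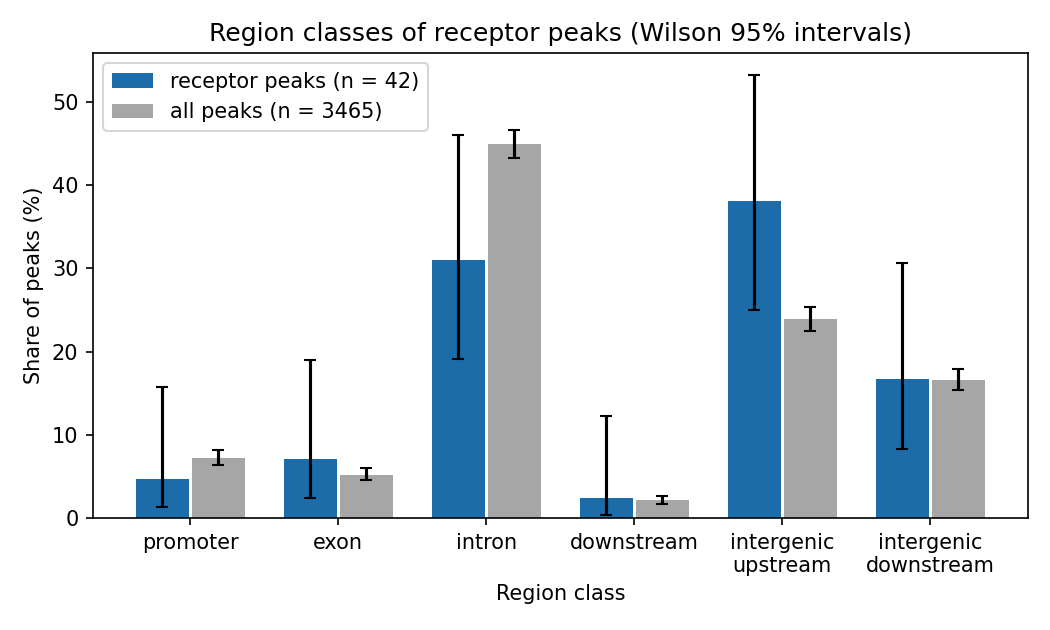
Share of peaks (y axis, percent) in each region class (x axis) for the 42 receptor peaks in blue and all 3465 peaks in grey, with Wilson 95% intervals. Receptor peaks sit at 38.1% in the upstream intergenic class against 23.9%, and at 31.0% in introns against 44.9%, with wide intervals.

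The median distance from summit to start site was 29446 bp (16467 to 38511) for the receptor peaks and 15384 bp (14642 to 16187) for all peaks. More than 25 kb separated 54.8% (39.9 to 68.8) of receptor peaks from the start site, against 32.6% of all peaks, and more than 50 kb separated 31.0% (19.1 to 46.0), against 13.0%. Only 5 of 42, or 11.9% (5.19 to 25), lay within 5 kb, against 20.9%. With 1 peak per gene, the peak was over 25 kb away at 17 of the 31 receptor genes, or 54.8%, against 31.6% of all 2548 genes.

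The gap in distance moved with background and peak strength. All 8 receptor peaks in the top 10% by background were over 25 kb away, with a median of 50395 bp, while the 346 such peaks of the whole table had a median of 16414 bp. The 8 peaks came from only 5 genes, and 4 of them were the cluster upstream of M.coruscus_chr3_0105, so their median leans on 1 locus. Without the top 10% the receptor median was 17649 bp (11496 to 38511), against 15346 bp for all peaks treated alike. Among peaks of at least 4-fold it was 17065 bp (6354 to 38511), against 15422 bp. These intervals include the values of the whole table. With 1 peak per gene the receptor median was 29507 bp (11496 to 52482) against 14597 bp, and without M.coruscus_chr3_0105 it was 22726 bp (14705 to 37368) against 15371 bp. These intervals, too, include the values of the whole table. The share of receptor peaks over 25 kb away stayed above that of all peaks in each of these settings. This share was 44.1% against 32.4% without the top 10% by background, and 44.4% against 32.7% among peaks of at least 4-fold. Without M.coruscus_chr3_0105 it was 19 of 38 receptor peaks, against 32.5% of all peaks. With 1 peak per gene it was 17 of 31, against 31.6%. Intervals of these shares were not computed. The part of background in the distances was not tested.

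**Figure D4:**
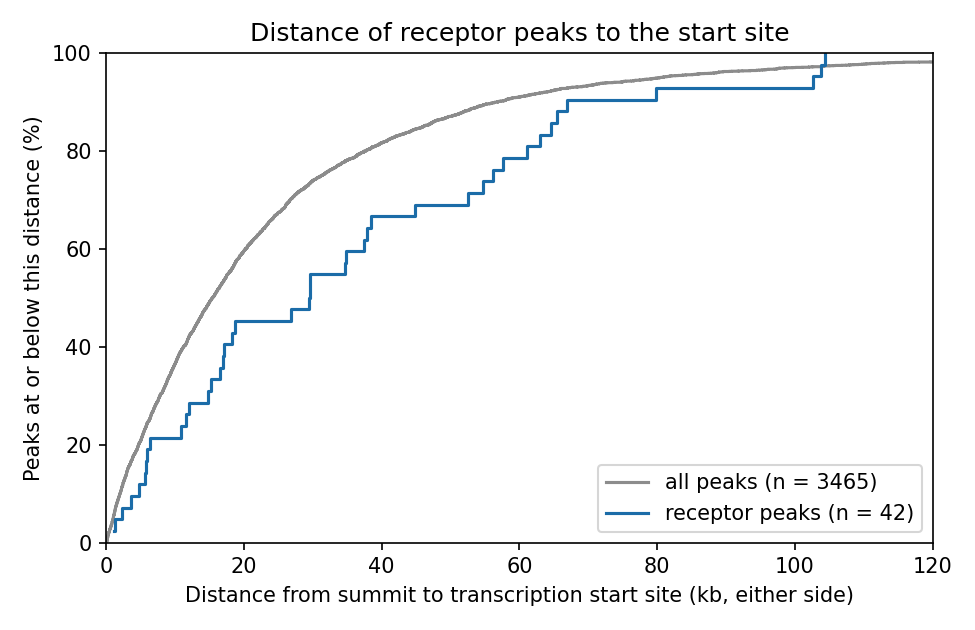
Cumulative share of peaks (y axis, percent) by distance from summit to start site (x axis, kb, shown to just past the farthest receptor peak) for the 42 receptor peaks in blue and all 3465 peaks in grey. The blue curve stays below the grey one over most of the range, with medians of 29446 and 15384 bp.

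Several receptor genes had more than 1 peak. Of the 31 genes, 7, or 22.6%, were nearest to more than 1 peak and together held 18 of the 42 peaks, and 21.8% of all nearest genes had more than 1 peak. For 13 of the 42 peaks, or 31.0% (19.1 to 46.0), another peak of the same gene lay within 10 kb, against 33.4% of all peaks, so both shares were near those of the whole table. These neighbours share a region and are not separate support for each other. By chromosome, 9 receptor peaks of 4 genes were on chromosome 3, 9 peaks of 7 genes on chromosome 8 and 6 peaks of 4 genes on chromosome 10, or 21.4%, 21.4% and 14.3% of receptor peaks against 8.86%, 9.90% and 5.97% of all peaks. Chromosomes 7, 11 and 12 held none, with 6.44%, 6.15% and 6.0% of all peaks. Of the 9 peaks on chromosome 3, 4 were those of M.coruscus_chr3_0105 and 3 those of M.coruscus_chr3_2128. Intervals of the chromosome shares were not computed, so these small counts do not show a clustering of receptors by chromosome.

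Other parts of G protein signaling were searched by name in the same table. The list found 25 peaks of 16 genes, with a median fold of 4.09 (3.96 to 5.49), and 17 of them, or 68.0%, were at least 4-fold, against 69.7% of all peaks. Of these 25 peaks, 4 were in promoters, or 16.0% (6.4 to 34.7), against 7.24% of all peaks. The interval includes the value of the whole table. Of these peaks, 10 of 6 genes matched a word but not the protein meant, as named below. Without them 15 peaks of 10 genes were left, 3 in promoters, or 20.0% (7.05 to 45.2), with 11 at least 4-fold and a median of 4.68. No kinase of the receptors themselves was found. The strongest was an intron peak of M.coruscus_chr5_0311, a match to the inositol trisphosphate receptor that releases stored calcium, with 9.35-fold enrichment at 95212 bp.

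Phosphodiesterases, which break down cyclic nucleotides, held 7 peaks of 2 genes. The strongest of them was 8.74-fold, 27963 bp upstream of M.coruscus_chr1_0203, and M.coruscus_chr8_2252 had a promoter peak of 4.04-fold at 2391 bp upstream beside an intron peak of 5.64-fold. Regulators of G-protein signaling, which speed up the switching off of G proteins, were matched by M.coruscus_chr3_1901 with a 6.05-fold intron peak and by M.coruscus_chr5_2445 with a 5.49-fold promoter peak 870 bp upstream. M.coruscus_chr1_0358, named as such a regulator in both databases, had a 4.03-fold intron peak. A regulatory subunit of the cyclic AMP-dependent kinase, by KEGG alone, had the promoter peak nearest to its start site, 159 bp upstream of M.coruscus_chr2_3311, with 3.96-fold enrichment and a pileup of 10. The adenylate cyclase gene M.coruscus_chr5_1404, which makes cyclic AMP, had a 3.27-fold intron peak. M.coruscus_chr2_3391, an exchange factor gene of the Epac type by KEGG that senses cyclic AMP, had a 4.68-fold intergenic peak.

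The other matches on this list rested on a word or on KEGG alone. The only G protein subunit match, M.coruscus_chr10_1658 with 3.77-fold enrichment, was the beta-2-like scaffold protein known as RACK1. The arrestin match M.coruscus_chr10_0726, with 4 intron peaks of 3.95- to 6.0-fold, was an arrestin domain protein and not an arrestin by name. Both protein kinase C matches were a binding protein, M.coruscus_chr9_0504 at 6.05-fold, and a substrate, M.coruscus_chr12_1732 at 3.60-fold. The phospholipase C match M.coruscus_chr6_1295 at 4.09-fold was named so by KEGG only, while its Swiss-Prot match was tumor protein p53-inducible protein 11. It was still counted among the peaks left without word matches. The CREB matches, M.coruscus_chr6_1960 at 4.09-fold and M.coruscus_chr8_2184 at 3.05-fold, were named after a CREB-binding protein.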

How the data were processed

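Per the methods, the authors used Trimmomatic 0.36 for trimming, FastQC for read quality, Bowtie2 2.5.1 for unique alignment to an unpublished *M. coruscus* genome, MACS3 3.0.0a7 for peaks of the ChIP library over the input, and Homer for annotation. Versions are from the submitters' processing notes. For duplicates and the q threshold, the setting was not given in the sources used here. In the table deposited by the authors, the signal column holds the summit pileup, fold enrichment is its ratio to the input background, and p and q are −log10 values. Library totals are not in this table, so depth is seen only as pileup. Coordinates are those of the authors' assembly, counted from 1.

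Background was computed as the pileup plus 1 divided by fold enrichment. Receptor peaks were found by words in the Swiss-Prot and KEGG matches, and the values were counted in Python 3.11.15 (Matplotlib 3.10.9, SciPy 1.17.1, NumPy 2.4.6 and pandas 2.3.3). Shares have Wilson 95% intervals and medians have 95% intervals from order statistics. Both were tested on independent random draws of fold values from all peaks, for the median fold and the share of at least 4-fold only. Distances, region classes and peaks that share a gene were not part of that check. The intervals treat peaks as independent, although neighbouring peaks are not. No hypothesis test was run. Genes went to families by Swiss-Prot name, or by KEGG name where Swiss-Prot gave none or a general one.

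The named genes were those with several peaks, those with promoter, exon or downstream peaks, the 10 highest and 5 lowest peaks, up to 3 leading members of each family, up to 2 leading genes of each downstream class and 5 other receptors. The remaining receptor genes and a further regulator of G-protein signaling, M.coruscus_chr1_0358, were named after their values were seen. The members and lists were chosen with earlier results of these data known. Alternatives were other strength limits, background, 1 peak per gene, other ways of finding members and, added after seeing the data, leaving out the gene with 4 peaks, the upstream share without that gene, without high background or with 1 peak per gene, the signaling list without word matches and the second GPR125 gene counted as adhesion. None of the 58540 genes of the reference gene table at hand, of another assembly, matched an identifier of the peaks, so no sequence is printed.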

Additional observations from a re-analysis of the deposited data

How the results depend on the processing

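No paired analysis was possible because the series has 1 ChIP and 1 input library and no result comes from a test. No library could be left out for the same reason. Of 78 recomputed values of the main results, 76 stayed within the interval of the value reported or within 1.5 times a count. The other 2 moved when only peaks of at least 4-fold were kept, which leaves 27 peaks and a median fold of 4.98 by construction. Most alternatives kept a subset of the same 42 peaks and were judged against wide intervals, so 76 of 78 says little about stability. The median distance counted as staying even where it fell from 29446 to 17065 bp, among peaks of at least 4-fold. Across the other alternatives the receptor peaks numbered 31 to 53 and the genes 23 to 39. The median fold was 4.43 to 4.84 there, the intergenic share 47.1 to 58.3%, the intron share 25 to 38.7%, the promoter share 3.23 to 6.45%, and the median distance 17649 to 32159 bp. The lowest pileup of 8 fragments and the single library limit how firmly any 1 peak can be read.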

Other observations

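Genes with a receptor signature also occurred outside the word rule. A 7-transmembrane or G protein-coupled receptor signature was carried by 12 further genes with 15 peaks. The frizzled match M.coruscus_chr14_1643, a receptor of Wnt proteins, had intergenic peaks of 6.05-fold at 15240 bp upstream and 5.53-fold at 42944 bp upstream. M.coruscus_chr2_2218, a match to the calcitonin gene-related peptide receptor, had peaks of 6.05- and 4.43-fold at 38452 and 39042 bp upstream. Another match to that receptor, M.coruscus_chr2_3119, had the only promoter peak among these genes, 1402 bp upstream, with 3.07-fold enrichment. M.coruscus_chr3_0779, with no name in either database, had a 5.26-fold intron peak. M.coruscus_chr7_2218 was named a tachykinin receptor by KEGG but a phosphoesterase by Swiss-Prot, and had a 5.24-fold intron peak. The parathyroid hormone receptor match M.coruscus_chr2_0628 had a 4.55-fold peak 5997 bp upstream with a pileup of 40. Of the 12 genes, M.coruscus_chr3_1465 with 2 peaks and M.coruscus_chr4_0584 with 1 were named as non-receptor proteins in both databases, a ubiquitin ligase in the former case and inturned or a ribosome-binding protein in the latter.

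Gene models M.coruscus_chr3_1054 and M.coruscus_chr4_0389 each carried 2 annotated 7-transmembrane receptor domains. They lay at residues 360 to 590 and 1006 to 1241 in the former and at 39 to 336 and 897 to 1172 in the latter. The other genes with such a domain had 1.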
